A study of Homo sapiens with 4 samples.

Results

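The genes described here are 59 human genes of innate nucleic acid sensing and of the interferon response. They were taken by symbol from the deposited table of estimated read counts, which has 35820 rows. Of the 59, 52 had a row, made up of 21 of 24 sensing and signalling genes and 31 of 35 genes that interferon induces, called outputs below. RIGI (also under DDX58), IFNAR1, SAMHD1, IFIT5, OAS1, OASL and USP18 were not analysed here. RNA was measured in 4 libraries of HCT116, an established human colon carcinoma line. 2 libraries were from wild-type (WT) cells, and the other 2 were from cells of clone E2-4, in which TOP3B was targeted by CRISPR with a guide RNA to exon 2 (knockout, KO). TOP3B, a topoisomerase, works on DNA as well as on RNA, and the series asks what its loss does to transcription and to R-loops, in which RNA stays paired with DNA. All 4 libraries came from untreated cultures as far as the labels say, and no agent that triggers sensing or interferon signalling is named in them. There was 1 KO clone, so clone and genotype cannot be told apart. Whether 2 libraries of a genotype were grown separately is not in the labels, and p-values measure the spread between these libraries, which may be technical. In such bulk RNA, fewer expressing cells and less RNA per cell cannot be told apart.

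Cells detect foreign or misplaced nucleic acid with dedicated sensors. CGAS and IFI16 bind DNA in the cytosol or nucleus and signal through the adaptor STING1, while RIGI and IFIH1 bind double-stranded RNA and signal through MAVS on mitochondria. Both routes activate the kinases TBK1 and IKBKE and the factors IRF3 and IRF7, which switch on interferon genes. Secreted interferon binds its receptor (IFNAR1 and IFNAR2), and the kinases JAK1 and TYK2 then activate a complex that holds STAT2 and IRF9. This complex binds the interferon-stimulated response element (ISRE) in the promoters of the output genes, many of which encode antiviral proteins.

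The response element was looked for in promoters from RefSeq (GRCh38.p14), in a window of 300 bases that starts 250 bases before each gene start. The letters searched were GAAANNGAAA, or TTTCNNTTTC for the other strand, and runs of the repeat give overlapping matches. Of 29 outputs with a promoter in that table, 21 held a match at 1 start or more (72.4%), against 3 of 17 sensing and signalling genes (17.6%) and 1195 of all 27305 genes (4.38%). Those 3 were IFIH1, TLR3 and EIF2AK2. The sensing side was set by role and can hold genes that interferon also induces, such as IRF7. A match is a description of the letters, and a promoter without one may hold another form of the element. The stretches below are shown because they come from outputs whose RNA is described further on. The first 5 belong to genes with at most 29 counts in any library, and the last 4 to genes that entered the test. Matches are in capitals, each stretch reads 5′ to 3′ on the strand of its gene, and its last base lies before the gene start.
ISG15 (chr1:1013359-1013424, plus strand): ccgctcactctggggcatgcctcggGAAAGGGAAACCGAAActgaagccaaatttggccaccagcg
IFIT1 (chr10:89392482-89392554, plus strand): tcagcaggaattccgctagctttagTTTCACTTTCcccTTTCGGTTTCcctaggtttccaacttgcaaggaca
IFIT3 (chr10:89327816-89327909, plus strand): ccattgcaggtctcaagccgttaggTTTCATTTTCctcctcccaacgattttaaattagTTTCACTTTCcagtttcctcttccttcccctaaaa
IFI6 (chr1:27672251-27672373, minus strand): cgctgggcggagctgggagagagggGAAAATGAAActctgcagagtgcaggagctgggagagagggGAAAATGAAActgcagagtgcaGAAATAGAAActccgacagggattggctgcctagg
BST2 (chr19:17405720-17405785, minus strand): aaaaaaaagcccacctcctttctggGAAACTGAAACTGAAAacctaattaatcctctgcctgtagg
IFI27 (chr14:94110603-94110675, plus strand): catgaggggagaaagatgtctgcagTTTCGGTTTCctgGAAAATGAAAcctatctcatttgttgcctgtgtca
PARP9 (chr3:122564307-122564366, minus strand): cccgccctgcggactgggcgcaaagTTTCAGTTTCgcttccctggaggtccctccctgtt
SAMD9 (chr7:93118081-93118140, minus strand): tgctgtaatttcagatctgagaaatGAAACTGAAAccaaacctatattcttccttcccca
OAS3 (chr12:112938437-112938473, plus strand): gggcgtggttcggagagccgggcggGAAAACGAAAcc
The match shown for PARP9 is also the match found for DTX3L, which starts on the opposite strand. Both point to the same bases, chr3:122564332-122564341. OAS3 holds a further match before its gene start, at chr12:112938331-112938340, which lies outside the stretch shown.

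Among the 52 genes with a row, the sensing and signalling genes were measured in HCT116 more often than the outputs. Of the 21 sensing and signalling genes, 11 had at least 10 counts in every library and 2 had 0 counts in all of them. For the 31 outputs these numbers were 7 and 6. A filter on low counts kept 16 of the 21 (76.2%) and 14 of the 31 (45.2%) for testing, against 34.3% of all rows. In the wider pathway list described further on, it kept 31 of 39 other induced genes (79.5%). It kept 11 of 14 other sensing and signalling genes on that list (78.6%). The contrast was therefore seen in the genes listed here and not in the wider list. Of the outputs left out by the filter 14 were in the promoter table and 11 of them held the response element letters (78.6%), beside 9 of 13 tested outputs (69.2%). Summed over the 21 sensing and signalling genes, levels in CPM (counts scaled to a common library size) were 256.7 and 273.0 in WT replicates 1 and 2 and 250.7 and 269.1 in KO replicates 1 and 2. The sums of the 31 outputs were 75.4 and 65.3 CPM in WT and 62.5 and 62.8 CPM in KO. Both KO sums of the outputs were the lower ones, but the WT libraries differed more from each other than WT replicate 2 did from KO. For counting error only, a gene at 0 in 1 library could still have had 3 counts' worth of level, 0.176 to 0.271 CPM depending on the library.

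**Figure D1:**
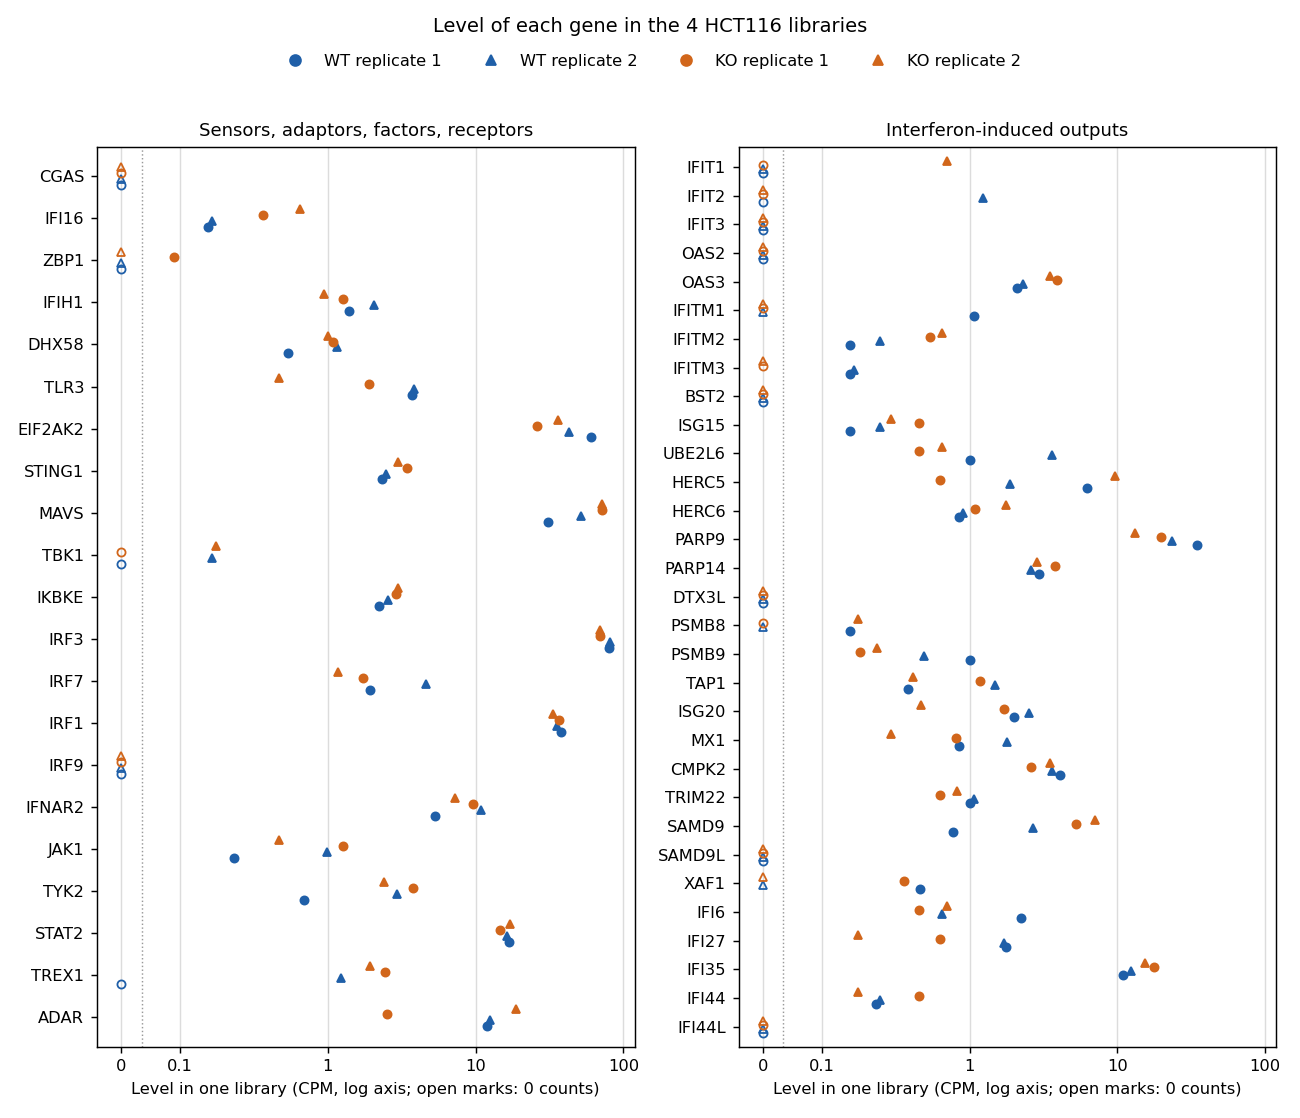
Level of each of the 52 genes in CPM (log axis) in the 4 libraries, with sensing and signalling genes on the left and outputs on the right; open marks at the left edge stand for 0 counts. IRF3, MAVS, EIF2AK2 and IRF1 lie between 25.8 and 81.5 CPM in every library, while IFIT3, OAS2, BST2, DTX3L, SAMD9L and IFI44L have 0 counts in all 4.

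Per length, on the scale of the deposited RPKM averaged over the 4 libraries, the order was led by transcription factors. IRF3 had a mean of 18.4 RPKM, with a range over libraries of 16.8 to 20.8, and IRF1 one of 5.31, with a range of 4.79 to 5.78. IFI35 followed with 3.11 RPKM (2.03 to 4.07), then MAVS with 1.98 (0.907 to 2.59). The ranges of IFI35 and MAVS overlapped, so their order is not set beyond the spread. A mean of at least 1 RPKM was reached by 5 sensing and signalling genes (IRF3, IRF1, MAVS, STAT2 and IRF7) and by 1 output, IFI35. The median of the means was 0.230 RPKM for sensing and signalling genes and 0.0455 for outputs. The gene lengths behind these RPKM were a median of 0.771 of the genomic span, over the 8 genes with 50 or more counts in every library. This ratio ran from 0.597 (IFI35) to 0.9997 (MAVS), with 0.647 for IRF3 and 0.735 for IRF1. Levels between genes therefore depend on that choice of length.

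**Figure D2:**
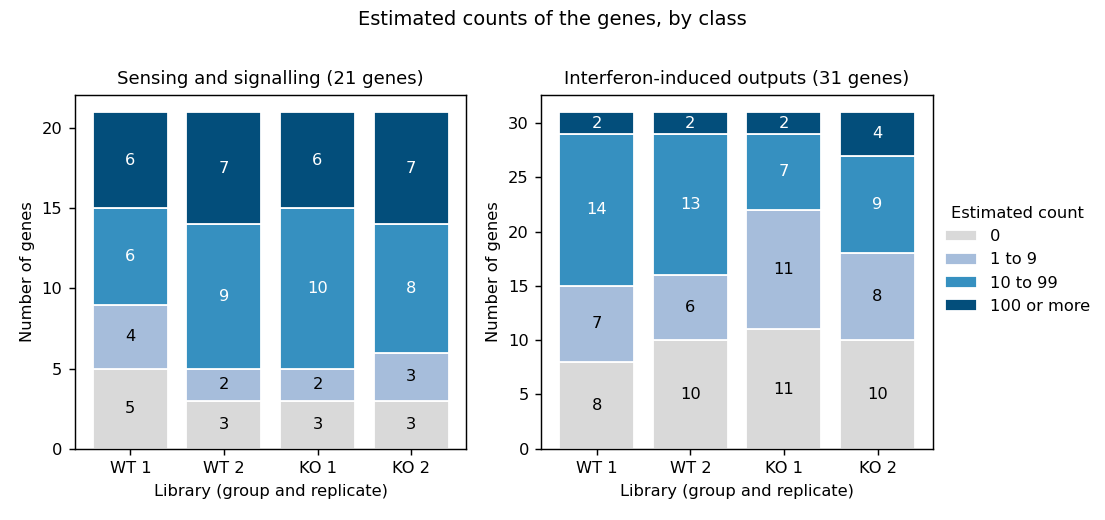
Number of genes by class of estimated count in each library, for 21 sensing and signalling genes (left) and 31 outputs (right). Between 8 and 11 outputs have a count of 0 in any library, and between 3 and 5 sensing and signalling genes do.

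No gene of the set differed between KO and WT beyond the threshold. By edgeR's quasi-likelihood test with Benjamini-Hochberg adjustment over 12269 genes, 0 of 30 tested members passed, where 0.00815% of all genes tested did. Adjusted p of the members ran from 0.397 (MAVS) to 0.960 (IFNAR2). DESeq2 called 0 of the 32 members for which it gave an adjusted p, against 1.45% of all genes, and its smallest adjusted p among them was 0.188, again for MAVS. limma-voom called 0 of 30, against 0.00815% of all genes. At an unadjusted edgeR p under 0.05 there were 6 of 30 members, beside 11.2% of all genes tested. Of the 6, 2 were higher in KO (4.97% of all genes) and 4 lower (6.21% of all genes). They were MAVS and SAMD9 on the higher side and EIF2AK2, PARP9, UBE2L6 and IFI27 on the lower side. At the depth of each library, UBE2L6 and IFI27 reached the level set by the low-count filter in the WT libraries only. They were tested only because they were high in WT, so their lower values are no support for a difference. Both also enter the counts that follow and the median of the outputs. Both KO libraries lay above both WT libraries in 8 members and below them in 12, so the groups did not overlap in 20 of 30, beside 47.0% of all genes tested (23.5% in each direction). A fitted difference of 2-fold or more was seen in 8 members, 2 higher (TREX1 and SAMD9) and 6 lower, beside 9.46% of all genes, and all 8 had under 50 counts in at least 1 library.

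Leaving out WT replicate 2 changed these counts. With WT replicate 1 as the lone WT library, which is then assumed to vary like the KO libraries, edgeR called 3 of 34 members, MAVS, SAMD9 and TREX1, and it also called 4.42% of all genes. Without WT replicate 1 it called 0 members and 0.0237% of all genes, and without either KO library 0 members and 0 genes. WT replicate 1 also had the lowest scaling factor, 0.858 against 1.04 to 1.06, and its part in these calls was not tested.

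The median log2 fold change was -0.0023 over the 16 tested sensing and signalling genes and -0.29 over the 14 tested outputs, beside -0.014 over all genes tested. Of the first, 8 lay above 0 and 8 below, and of the second 6 above and 8 below. With no filter the sensing median was 0.29, and on log2 of RPKM with a pseudocount of 1 the output median was -0.015. The median size of the change in either direction was 0.57 for the 30 members and 0.27 for all genes tested. Of the 30 members, 22 had under 50 counts in at least 1 library, and genes of matched level were not compared. For the 54 tested genes of the wider pathway list described further on, the median size was 0.23.

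**Figure D3:**
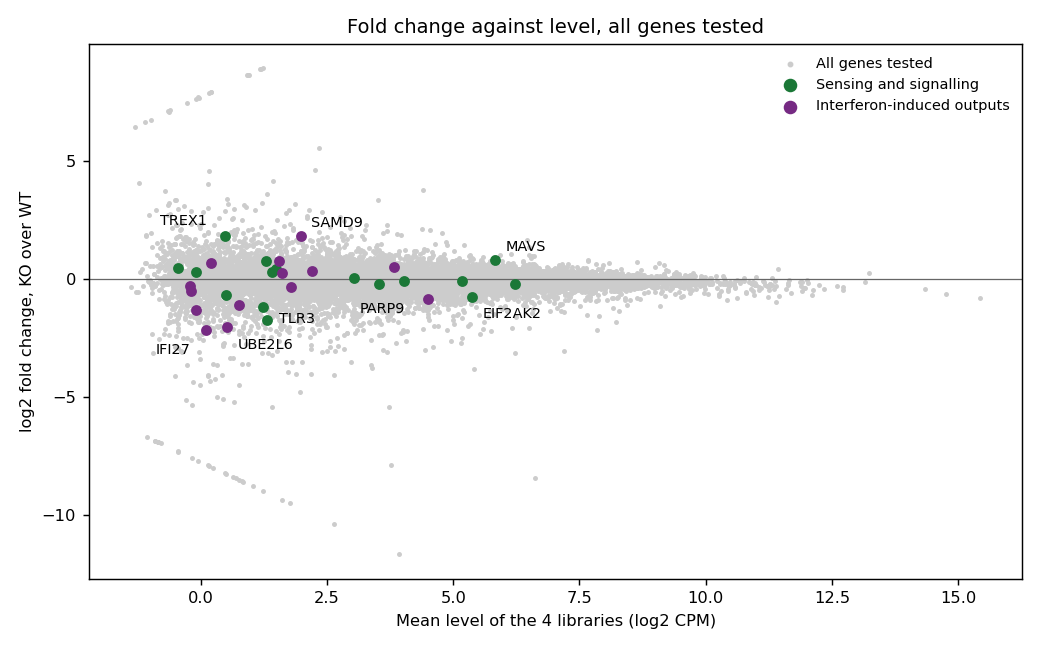
log2 fold change of KO over WT against mean level (log2 CPM) for all 12269 genes tested (grey), with sensing and signalling genes in green and outputs in purple. The 30 members lie inside the cloud of all genes, from -2.17 (IFI27) to 1.83 (TREX1 and SAMD9).

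Sensors of DNA were close to undetected. CGAS, the enzyme that makes cyclic GMP-AMP on binding DNA, had 0 counts in all 4 libraries. IFI16, a DNA-binding protein that can feed the same pathway, had 2 and 2 counts in WT and 4 and 11 in KO. ZBP1, which binds nucleic acid in the left-handed Z form, had 1 count in KO replicate 1 and 0 elsewhere. None of these 3 passed the filter, so no fold change is given.

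Sensors of RNA were better covered. EIF2AK2 (PKR), the kinase that halts translation on binding double-stranded RNA, stood at 60.4 and 42.6 CPM in WT and 25.8 and 35.9 CPM in KO. Both KO libraries were lower than both WT libraries, and the group means were 51.5 ± 12.6 and 30.9 ± 7.09 (SD, n = 2 each). Its log2 fold change amounted to -0.74 (SE 0.26; edgeR adjusted p = 0.420; DESeq2 adjusted p = 0.332), and it came to -0.46 without WT replicate 1. TLR3, the endosomal receptor for double-stranded RNA, had 3.70 and 3.85 CPM in WT, close to each other, and 1.90 and 0.470 CPM in KO, which differed 4-fold on 21 and 8 counts. Its log2 fold change of -1.71 (SE 0.70; edgeR adjusted p = 0.462) ran from -2.98 without KO replicate 1 to -0.99 without KO replicate 2. IFIH1 (MDA5), which recognises long double-stranded RNA, was measured on 14 to 25 counts, at 1.39 and 2.05 CPM in WT and 1.27 and 0.939 CPM in KO, a log2 fold change of -0.64 (SE 0.48; edgeR adjusted p = 0.617). It came to -0.33 without WT replicate 2 and -0.90 without WT replicate 1. The 2 WT libraries were further apart than WT replicate 1 was from KO replicate 1. DHX58 (LGP2), a relative of IFIH1 without its signalling domains, overlapped between groups with 7 to 17 counts.

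The tested adaptors and kinases all had fold changes above 0, none of them past the threshold. MAVS, through which the RNA sensors signal, stood at 31.1 and 51.3 CPM in WT and 71.7 and 71.9 CPM in KO. The KO libraries nearly coincided above both WT libraries, which were far apart. Group means were 41.2 ± 14.3 and 71.8 ± 0.149 CPM with n = 2 each (SD), for a log2 fold change of 0.80 (SE 0.26; edgeR adjusted p = 0.397; DESeq2 adjusted p = 0.188), with 0.48 against WT replicate 2 alone and 1.22 against WT replicate 1 alone. In the latter fit the edgeR adjusted p was 0.0199. STING1, the adaptor of the DNA route, had 2.31 and 2.46 CPM in WT and 3.43 and 2.99 CPM in KO, on 30 to 51 counts. That is a log2 fold change of 0.43 (SE 0.36; edgeR adjusted p = 0.647). IKBKE was also higher in both KO libraries, at 2.89 and 2.99 CPM against 2.23 and 2.54 in WT. TBK1, a kinase used by nearly every cell type, had 0 and 2 counts in WT and 0 and 3 in KO and was not tested.

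Estimates near 0 for such a gene call for care. ACTB, which encodes cytoplasmic actin, had only 426 to 1006 counts in these libraries, against 99439 to 145053 for the tubulin gene TUBA1B. JAK1, the kinase that all type I interferon signals need, had 3 and 12 counts in WT and 14 and 8 in KO. RAVER2, which overlaps JAK1 on the opposite strand in GENCODE 29, had 1775 to 2854 counts. A low count in this table therefore does not show that a transcript was absent.

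The interferon regulatory factors differed little where they were well measured. IRF3, the factor that sensing activates first, stood at 80.1 and 81.5 CPM in WT and 69.3 and 69.9 CPM in KO. The groups did not overlap on this scale, but in the deposited RPKM the WT values of 16.8 and 20.8 lay on either side of the KO values of 18.0 and 18.1. Its log2 fold change amounted to -0.22 (SE 0.11; edgeR adjusted p = 0.520) on 767 to 1190 counts, and it was -0.06 with library sizes alone and -0.05 on log2 of RPKM with either pseudocount. IRF1, which also acts downstream of interferon gamma, overlapped between groups at 33.2 to 37.8 CPM (log2 fold change -0.07, SE 0.15; edgeR adjusted p = 0.866), and this sign changed with library sizes alone. IRF7, which amplifies interferon production and is itself induced, had 1.93 and 4.59 CPM in WT and 1.72 and 1.17 CPM in KO. WT replicate 2 was high and the other 3 libraries were alike, and the log2 fold change of -1.18 (SE 0.57; edgeR adjusted p = 0.503) came to -0.41 with WT replicate 1 alone. IRF9, the DNA-binding part of the interferon-activated complex, had 0 counts in all libraries.

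In the receptor and its signalling chain the groups overlapped for all 4 tested genes. STAT2, the partner of IRF9, was even across libraries at 14.6 to 17.0 CPM (log2 fold change -0.07, SE 0.19; edgeR adjusted p = 0.900), and its sign also changed with library sizes alone. IFNAR2, the receptor chain that binds interferon tightly, ranged from 5.32 CPM in WT replicate 1 to 10.8 CPM in WT replicate 2, and the KO values of 9.67 and 7.22 lay between. TYK2, the kinase on the other receptor chain, had 0.693 and 2.95 CPM in WT and 3.80 and 2.41 CPM in KO, a log2 fold change of 0.76 (SE 0.74; edgeR adjusted p = 0.689). WT replicate 1 was the low library, and without it the fold change was 0.06.

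Enzymes that keep the cell's own nucleic acid from triggering sensors were uneven between replicates. TREX1, a nuclease that degrades cytosolic DNA, had 0 and 15 counts in WT and 27 and 33 in KO, or 0, 1.23, 2.44 and 1.94 CPM. Both KO libraries were higher than both WT libraries, but the log2 fold change of 1.83 (SE 1.25; edgeR adjusted p = 0.591) rests on the 0 of WT replicate 1 and was 0.82 without that library. Against WT replicate 1 alone it was 7.91 (edgeR adjusted p = 0.0425), a value fitted against 0 counts that is no bound. TREX1 lies within ATRIP on the same strand, and ATRIP had 1034 to 1799 counts, so the division of reads between them makes TREX1 uncertain. ADAR, which edits adenosine to inosine in double-stranded RNA, had 12.0 and 12.5 CPM in WT and 2.53 and 18.8 CPM in KO. The WT libraries coincided and the KO libraries lay on either side of them, with a log2 fold change of -0.18 (SE 0.85; edgeR adjusted p = 0.942). It was 0.62 without KO replicate 1 and -2.27 without KO replicate 2.

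**Figure D4:**
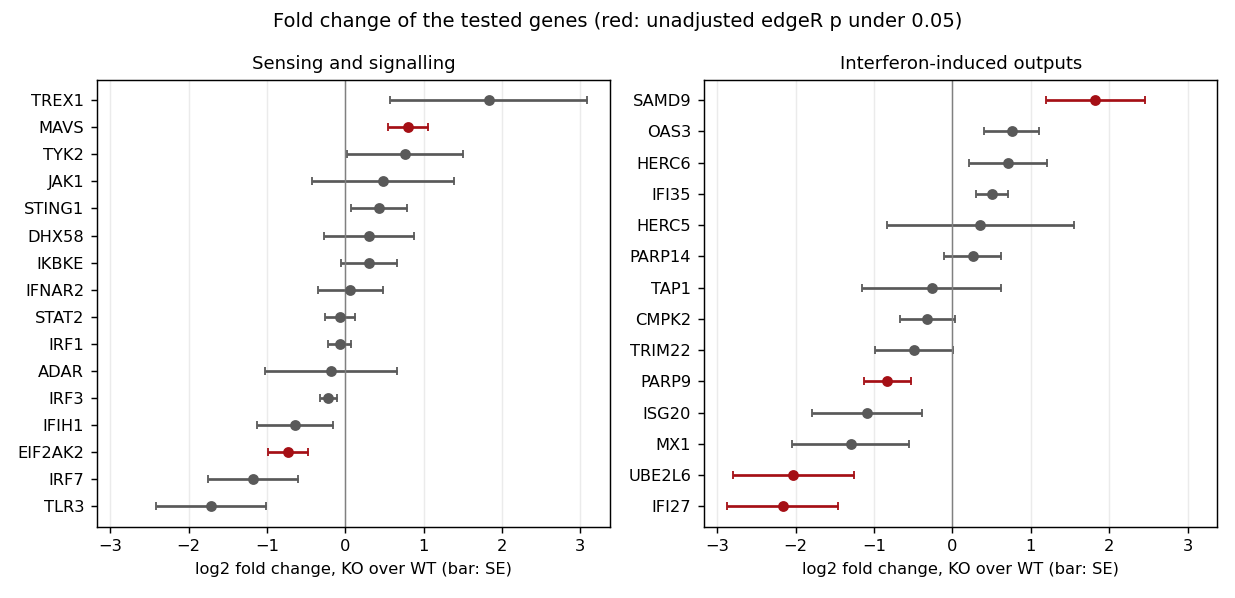
log2 fold change of KO over WT with its standard error for 16 sensing and signalling genes (left) and 14 outputs (right); red marks an unadjusted edgeR p under 0.05. MAVS (0.80) and EIF2AK2 (-0.74) on the left and SAMD9, PARP9, UBE2L6 and IFI27 on the right are red, and no gene passed after adjustment.

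Among the outputs, the IFIT genes had 0 counts in most libraries of both genotypes. IFIT1 binds viral RNA that lacks host cap marks, and IFIT1, IFIT2 and IFIT3 sit in 1 cluster on chromosome 10. IFIT3 had 0 counts throughout, IFIT1 had 12 counts in KO replicate 2 alone, and IFIT2 had 15 in WT replicate 2 alone. Both IFIT1 and IFIT3 carry 2 matches to the response element in the stretches printed above. None of the 3 was tested, and all lie opposite LIPA (10 to 76 counts) in GENCODE 29.

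The oligoadenylate synthetases make a messenger that activates RNase L. OAS2 had 0 counts in all libraries, while its neighbour OAS3 on chromosome 12 was measured on 27 to 60 counts. OAS3 stood at 2.08 and 2.29 CPM in WT and 3.89 and 3.52 CPM in KO. Both groups were tight and did not overlap, with a log2 fold change of 0.76 (SE 0.35; edgeR adjusted p = 0.492; DESeq2 adjusted p = 0.892).

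Membrane proteins that block virus entry or release were hardly counted. IFITM1 had 14 counts in WT replicate 1 and 0 in the others, IFITM2 had 2 and 3 counts in WT and 6 and 11 in KO, and IFITM3 had 2 in each WT library and 0 in KO. These 3 are closely similar neighbours on chromosome 11, so the division of reads among them is uncertain. BST2 (tetherin), whose promoter above holds 2 overlapping matches, had 0 counts in all libraries.

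The ISG15 system, a ubiquitin-like tag with its own enzymes, held a few measurable genes. ISG15 itself had 2 and 3 counts in WT and 5 and 5 in KO and was not tested. UBE2L6, the conjugating enzyme for ISG15, had 1.00 and 3.60 CPM in WT and 0.452 and 0.646 CPM in KO, from 13, 44, 5 and 11 counts. Both KO libraries were lower, but the WT libraries were more than 3-fold apart. The log2 fold change of -2.03 (SE 0.77; edgeR adjusted p = 0.444) was -0.83 with WT replicate 1 alone. UBE2L6 passed the low-count filter only through the WT libraries. HERC5, the ligase of the system, scattered most, with 6.24 and 1.88 CPM in WT and 0.633 and 9.63 CPM in KO. Its relative and neighbour HERC6, with 11 to 30 counts, was slightly higher in both KO libraries (log2 fold change 0.71, SE 0.50; edgeR adjusted p = 0.603), and the value was 0.31 without KO replicate 2.

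PARP9 and DTX3L form a complex that modifies histones and ubiquitin, and they start on opposite strands around the shared element shown above. PARP9 had 452, 286, 218 and 225 counts, or 34.8 and 23.4 CPM in WT and 19.7 and 13.2 CPM in KO (29.1 ± 8.07 and 16.5 ± 4.59, SD, n = 2 each). Both KO libraries lay below WT, with a log2 fold change of -0.83 (SE 0.30; edgeR adjusted p = 0.432; DESeq2 adjusted p = 0.403), and -0.51 without WT replicate 1. DTX3L had 0 counts in every library. The spans of these genes overlap on opposite strands in GENCODE 29, and although the library kit marks strand, whether the counting used it is not known here. PARP14, a further member of this family, was even across libraries at 2.62 to 3.80 CPM.

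Genes of antigen processing sat at low counts. PSMB8 and PSMB9, subunits of the immunoproteasome, had at most 3 and 13 counts and were not tested. TAP1, which carries peptides into the endoplasmic reticulum, overlapped between groups at 0.385 and 1.47 CPM in WT and 1.17 and 0.411 CPM in KO.

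The remaining tested effectors had values on both sides of 0. SAMD9, a cytoplasmic antiviral and growth-restraining protein, stood at 0.771 and 2.70 CPM in WT and 5.24 and 7.05 CPM in KO, from 10, 33, 58 and 120 counts. Both KO libraries were higher than both WT libraries, and the group means were 1.74 ± 1.37 and 6.14 ± 1.28 CPM (SD, n = 2 each). On the log2 scale the difference was 1.83 (SE 0.64; edgeR adjusted p = 0.420; DESeq2 adjusted p = 0.346), with 1.19 without WT replicate 1 and 3.0 without WT replicate 2 (edgeR adjusted p = 0.0428). SAMD9L, the neighbouring paralog on chromosome 7, had 0 counts in all libraries. IFI35, which binds other interferon-induced proteins, was the output of highest level per length and was steadier, at 10.9 and 12.4 CPM in WT and 17.7 and 15.4 CPM in KO, a log2 fold change of 0.50 (SE 0.21; edgeR adjusted p = 0.464).

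Other effectors lay lower in KO. IFI27, a small mitochondrial protein often used as a marker of interferon exposure, had 1.77 and 1.72 CPM in WT and 0.633 and 0.176 CPM in KO, from 23, 21, 7 and 3 counts. The WT libraries agreed closely and both KO libraries were lower, but IFI27 passed the low-count filter only through the WT libraries. The log2 fold change came to -2.17 (SE 0.71), with an edgeR adjusted p of 0.405 and a DESeq2 adjusted p of 0.659. Without KO replicate 2 the log2 fold change was -1.45. ISG20, an RNA exonuclease, had 2.00 and 2.54 CPM in WT and 1.72 and 0.470 CPM in KO (-1.09, SE 0.70; edgeR adjusted p = 0.567), and here KO replicate 2 was the low library. The value was -0.40 without it and -2.25 without KO replicate 1. MX1, a dynamin-like GTPase that traps viral particles, had 0.848 and 1.80 CPM in WT and 0.813 and 0.294 CPM in KO (-1.30, SE 0.74; edgeR adjusted p = 0.538), and this ran from -2.14 without KO replicate 1 to -0.64 without WT replicate 2. CMPK2 (-0.32, SE 0.36; edgeR adjusted p = 0.731) also lay below WT in both KO libraries. So did TRIM22 (-0.49, SE 0.50; edgeR adjusted p = 0.701), on 7 to 14 counts. Neither fold change was larger than its standard error. IFI6 (5 to 29 counts), XAF1 (0 to 6) and IFI44 (3 to 5) were not tested, and IFI44L had 0 counts in all libraries.

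The wider pathway, from a list of 83 further genes, held no called gene either. Of the 68 with a row 54 were tested, and edgeR called 0 of them (0.00815% of all genes), DESeq2 0 (1.45% of all genes) and limma-voom 0 (0.00815% of all genes). At an unadjusted edgeR p under 0.05 there were 5 of the 54, beside 11.2% of all genes tested. The 4 of smallest p were all lower in KO. PSME1, a proteasome activator subunit, had 23.1 and 26.0 CPM in WT and 16.9 and 16.1 CPM in KO, a log2 fold change of -0.58 (SE 0.17; edgeR adjusted p = 0.382). LGALS3BP, a secreted glycoprotein, had 103.9 and 88.4 CPM in WT and 69.0 and 71.8 CPM in KO (-0.45, SE 0.13; edgeR adjusted p = 0.384). ZNFX1, a helicase that senses viral RNA, and TRIM25, the ubiquitin ligase of the RIGI route, had log2 fold changes of -0.83 and -0.71 (edgeR adjusted p = 0.410 for both). The median over the 54 was 0.03, with 29 above 0 and 25 below. Among them, other induced genes had a median of 0.14, with 21 above 0 and 10 below. That sign is opposite to the median of -0.29 of the outputs above. Other sensing and signalling genes had a median of -0.18, with 3 above 0 and 8 below. Of the 9 interferon ligands on the list 1 had a row, IFNE, at 0 to 6 counts, and interferon genes outside the list are not described.

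The libraries held 10450048 to 16143634 estimated counts. TOP3B RNA stood at 57.1 and 66.5 CPM in WT and 43.9 and 54.7 CPM in KO, a log2 fold change of -0.32 (SE 0.17; edgeR adjusted p = 0.522). A guide that cuts within an exon need not remove the transcript, and the TOP3B level is no check of the genotype. All 8 colon epithelial markers were measured. Their summed level was 2580 to 3072 CPM in WT and 1776 to 1877 CPM in KO. Most of that sum is KRT19 (a mean of 1994 CPM in WT and 1145 CPM in KO). KRT19, EPCAM, CDH1, CLDN4, CLDN7 and ELF3 were each lower in both KO libraries. Their log2 fold changes ran from -0.96 (ELF3) to -0.30 (CLDN7). DESeq2 called KRT19 (adjusted p = 0.0029) and ELF3 (adjusted p = 0.00039), and edgeR called neither (adjusted p = 0.293 and 0.246). KRT8 and KRT18 overlapped between groups, and the fold change of KRT18 was above 0. The part of these markers in the values above was not tested. Leukocytes can express many of the genes above at high level. Of 11 leukocyte markers with a row 7 were at 0 in every library, among them PTPRC, CD3E and MS4A1, and the sum of all 11 was 1.56 to 3.01 CPM in WT and 1.23 to 1.45 CPM in KO. CD68 made up most of that sum in WT (2.62 and 1.23 CPM) and all of it in KO (1.45 and 1.23 CPM).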

How the data were processed

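Total RNA with ribosomal RNA removed was sequenced from 4 HCT116 libraries, per the labels' protocols. The authors deposited estimated counts per gene, rounded to whole numbers, with a second table in RPKM. Per the submitters' processing notes the tools and builds include Salmon 1.10.1 and hg19. The annotation and the strand setting are not stated in the sources used here. For the 8 members with 50 or more counts in every library, the deposited RPKM were close to these counts divided by a gene length and the column sum. This did not hold for every member of lower count. PSMB9, with 13 counts in WT replicate 1 and 2 in KO replicate 1, had 0.0954 and 0.0116 RPKM there.

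The counts were tested with edgeR 4.0.16 in R 4.3.3 (filterByExpr, TMM factors, glmQLFit, glmQLFTest, genotype only; threshold 0.05 after Benjamini-Hochberg adjustment over all genes). CPM use the TMM factors. The standard error is the fold change divided by the square root of F. Alternatives were DESeq2 1.42.0, limma 3.58.1 (voom, and log2 of RPKM with pseudocounts of 0.1 and 1), other scalings, no filter, a replicate block and leaving out each library. The tests were run on simulated data first. The members, roles and lists were chosen with earlier results of these data known. Values in every library are given for tested members that had an unadjusted p under 0.05, a DESeq2 call or one of the 12 largest fold changes, or that are canonical sensors or outputs. GENCODE 29 (GRCh38) gave chromosomes, spans and overlaps only, and 11 members with a row overlap a gene on the same strand. 1 result on a gene of the wider pathway list is not reported here.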

Additional observations from a re-analysis of the deposited data

How the results depend on the processing

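Of 204 fold changes of the 17 members described in full, over 12 alternatives, 200 kept their direction and stayed short of the threshold, 3 passed it (MAVS, SAMD9 and TREX1, all without WT replicate 2) and ADAR turned to 0.62 without KO replicate 1 (-2.27 without KO replicate 2). The count of called members was 0 under all alternatives that kept every library, and 0 to 3 when 1 library was left out. Members at an unadjusted p under 0.05 numbered 6, and 2 to 7 with a library left out. The outputs' median of -0.29 was -0.16 with library sizes alone, -0.070 and -0.015 on log2 of RPKM with pseudocounts of 0.1 and 1, and -0.68 to -0.39 with a library left out, where more low genes entered. The sensing median of -0.0023 was 0.29 with no filter and -0.17 to 0.41 with a library left out. Library sizes alone moved the median of all genes by 0.16, and IRF1 and STAT2 changed sign. The replicate number as a block called 0 members and put 7 at an unadjusted p under 0.05; same-numbered libraries' deviations correlated at 0.058 across genes, and the labels do not say what a number marks. The pathway count of 0 and the sign for TOP3B did not change under any alternative run. Depth limits the fold changes: 22 of the 30 tested members had under 50 counts in at least 1 library.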
